A study of Homo sapiens with 30 samples.

Results

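Open chromatin was compared between cells that reached the same hindbrain medium from an anterior or from a posterior neural ectoderm. The assay was Omni-ATAC-seq, in which the Tn5 transposase cuts and tags accessible DNA. The cells were H1, an established line of human embryonic stem cells with a wild-type genotype. Peaks of all 10 lists of the series on chromosomes 1 to 22 were merged where they overlapped by 1 bp or more, which gave 476170 regions, and a list was called open at a region where it had a peak. Of these regions, 320757 were open in aNE_H, in pNE_H or in both, and they are the members described here.

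Both groups passed through definitive ectoderm on day 1, after a day with A8301, trametinib, C59 and LDN193189. The aNE_H cells then spent a day as anterior neural ectoderm (aNE) with A8301, LDN193189, C59 and thiazovivin. The pNE_H cells spent it as posterior neural ectoderm (pNE) with A8301, LDN193189, thiazovivin, FGF2, the tankyrase inhibitor XAV939 and 50 nM of TTNPB, an agonist of the retinoic acid receptors. Both were then kept in hindbrain medium until day 4. The composition of that medium is not given in the sources used here. The labels give a plating density of 75000 cells per square cm for the anterior protocol and 150000 for the posterior one, so origin and density cannot be told apart. The other lists were undifferentiated cells (hPSC), ectoderm (DE), aNE and pNE, and the aNE and pNE descendants in telencephalon (T) and midbrain (M) media. Each group had 3 replicates, and 1 list without scores was deposited for each group. The values below therefore compare lists, have no replicate error and allow no test of the conditions. Read depth is unknown.

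The hindbrain forms behind the midbrain and is divided into segments called rhombomeres. Retinoic acid and FGF signals open the HOX clusters from their 3′ ends, and HOX proteins with TALE partners such as MEIS and PBX give the segments their identity. OTX2 marks the forebrain and midbrain, and the boundary in front of the hindbrain is kept by EN1, PAX2, FGF8 and WNT1.

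Promoters were the only regions whose sequence could be read, from RefSeq windows on GRCh38.p14. The sequences printed here are the 250 bases before a transcription start, 5′ to 3′ on the gene's strand, of 5 patterning genes whose window had a peak in 1 of the 2 lists. The windows of CYP26A1 and the 3 HOX genes were open in pNE_H and not in aNE_H, and that of OTX2 was open in aNE_H and not in pNE_H. CYP26A1 and OTX2 each have another window, not printed, that was open in neither list. The CYP26A1 capitals mark a retinoid direct repeat, that is 2 hexamers in the same orientation, each being AGGTCA, its variant AGTTCA, the form GGGTCA or the form GGTTCA, with 5 bases between them, found here on the opposite strand. The HOXA2 and HOXB1 capitals mark a match to TGATNNAT, a form of site shared by PBX and HOX proteins, which lies on the opposite strand in HOXA2. The HOXD4 capitals mark GGATTA, a form of site bound by OTX factors. The 5 stretches were searched on both strands for these 3 motifs and for the TCF form ATCAAAG and the SOX form CATTGT, and no other match was found in them. A match is a description of the letters and not a measured binding site.
CYP26A1 (retinoic acid hydroxylase), chr10:93073643-93073892, plus strand: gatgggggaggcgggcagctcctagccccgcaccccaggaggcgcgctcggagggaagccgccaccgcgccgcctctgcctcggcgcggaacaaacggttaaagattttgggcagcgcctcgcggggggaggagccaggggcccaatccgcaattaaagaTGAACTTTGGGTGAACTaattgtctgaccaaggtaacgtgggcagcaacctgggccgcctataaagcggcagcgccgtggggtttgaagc
HOXA2 (rhombomere 2 identity), chr7:27102684-27102933, minus strand: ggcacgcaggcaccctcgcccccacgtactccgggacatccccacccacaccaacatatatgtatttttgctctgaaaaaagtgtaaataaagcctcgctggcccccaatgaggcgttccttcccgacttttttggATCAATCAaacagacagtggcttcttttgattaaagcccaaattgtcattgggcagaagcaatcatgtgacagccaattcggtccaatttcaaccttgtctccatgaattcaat
HOXB1 (rhombomere 4 identity), chr17:48531012-48531261, minus strand: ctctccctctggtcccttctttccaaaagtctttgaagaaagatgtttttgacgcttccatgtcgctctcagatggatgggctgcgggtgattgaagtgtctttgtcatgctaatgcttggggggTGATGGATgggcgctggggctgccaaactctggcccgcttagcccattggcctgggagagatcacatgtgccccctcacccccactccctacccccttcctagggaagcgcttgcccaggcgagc
HOXD4 (a HOX gene of the caudal hindbrain), chr2:176151300-176151549, plus strand: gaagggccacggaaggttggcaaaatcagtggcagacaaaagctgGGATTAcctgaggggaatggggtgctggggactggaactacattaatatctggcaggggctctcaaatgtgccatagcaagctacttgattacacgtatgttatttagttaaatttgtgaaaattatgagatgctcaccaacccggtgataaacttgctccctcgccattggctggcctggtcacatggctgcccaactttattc
OTX2 (forebrain and midbrain factor), chr14:56805668-56805917, minus strand: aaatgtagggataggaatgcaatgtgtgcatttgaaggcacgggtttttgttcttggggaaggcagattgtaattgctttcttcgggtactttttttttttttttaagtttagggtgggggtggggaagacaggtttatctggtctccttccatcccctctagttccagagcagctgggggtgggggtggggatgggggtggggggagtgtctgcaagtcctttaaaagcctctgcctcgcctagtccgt

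The lists differed in length. On chromosomes 1 to 22 aNE_H had 196961 peaks covering 81.1 Mb and pNE_H had 302355 covering 125 Mb. The median peak width was 283 bp in aNE_H and 284 bp in pNE_H. The narrowest peak was 126 bp in aNE_H and 109 bp in pNE_H. Of the 10 lists pNE_H was the longest, and the other 9 had between 162041 and 238994 peaks. Except where stated, comparisons were repeated with the 196961 widest pNE_H peaks, called equal list size below. That step removed pNE_H peaks narrower than 208 bp and left aNE_H whole. At this size, 34184 of the 57413 regions open in aNE_H only (59.5%) rested on aNE_H peaks that were themselves narrower than 208 bp. For this reason another form, added after the values were seen, applied the 208 bp minimum to both lists.

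As deposited, 30380 regions were open in aNE_H only, 135587 in pNE_H only and 154790 in both. The regions open in both were 48.3% of all members by count (Jaccard index 0.483). Thus 16.4% of the aNE_H regions (95% Wilson interval 16.2 to 16.6) and 46.7% of the pNE_H regions (46.5 to 46.9) were exclusive. These intervals cover the counting of regions and not replicate error. With lists of equal size 57413 regions were open in aNE_H only, 63907 in pNE_H only and 127757 in both. With the 208 bp minimum in both lists the counts were 23105, 85655 and 106545.

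The excess of pNE_H-only regions was thus 4.46-fold as deposited and 1.11-fold at equal list size. The 2 exclusive counts differ by as much as the numbers of open regions do, so this ratio follows how far each list is cut and is a description of the lists. When pNE_H was cut to its widest 102556 peaks, which cover no more bases than aNE_H, 104840 regions were open in aNE_H only and 21010 in pNE_H only. Among peaks of at least 208 bp that had no peak of any width in the other list, 11582 regions were aNE_H-only and 64226 were pNE_H-only. The part of list length, peak threshold and library depth in these counts was not tested.

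**Figure D1:**
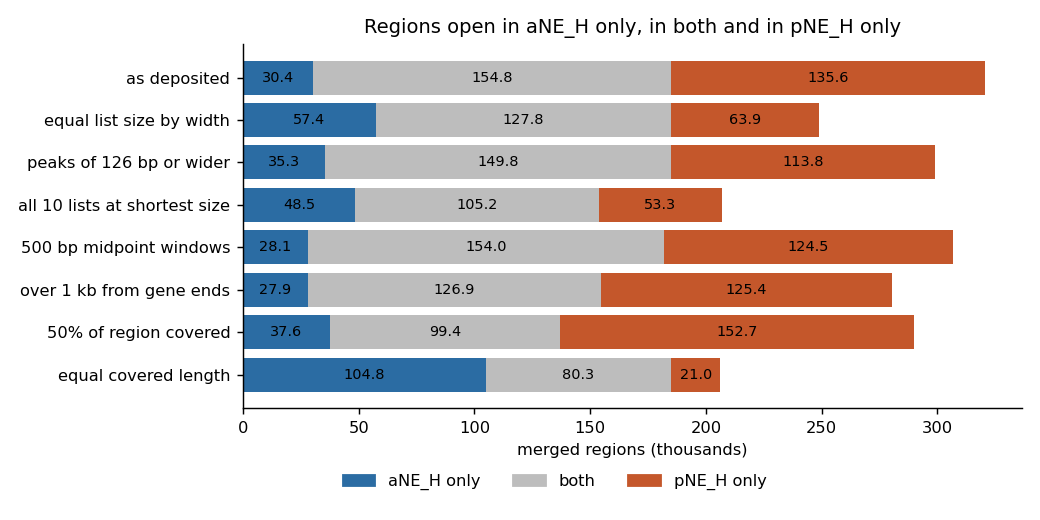
Merged regions (x axis) open in aNE_H only (blue), in both (grey) and in pNE_H only (orange), under 8 ways of treating the lists (rows). The pNE_H-only part is the longer exclusive part in every row except equal covered length, and the parts are close in size at equal list size (57413 and 63907 regions) and with all 10 lists at the shortest size (48509 and 53344).

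Regions open in both lists were wider and lay closer to genes than exclusive ones. Their median width was 628 bp, against 255 bp for aNE_H-only and 264 bp for pNE_H-only regions. These are widths of regions merged over all 10 lists and not of single peaks. Merging more peaks widens a region, so the difference in width is partly set by the merge. A protein-coding gene end lay within 1 kb of the midpoint of 10.1% of the shared regions, 2.66% of the aNE_H-only regions and 2.23% of the pNE_H-only regions. The median distance to such an end was 35.0 kb, 42.7 kb and 60.5 kb in the same order. The exclusive regions were therefore mostly distal.

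The same comparison in the other media gave somewhat larger overlaps. The Jaccard index at equal list size was 0.513 in hindbrain medium, 0.519 in telencephalon medium and 0.532 in midbrain medium. As deposited it was 0.483, 0.520 and 0.531. The 3 comparisons use 6 different lists, and no test of their difference could be made.

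Most exclusive regions were not open in the day 2 population from which the cells came. Of the pNE_H-only regions, 18.3% were open in pNE and 12.3% in aNE, and 77.4% were open in neither. Of the aNE_H-only regions, 20.5% were open in aNE, their own precursor, and 35.5% in pNE, the precursor of the other group. The pNE list has 199638 peaks and the aNE list 162041. With all 10 lists cut to 162041 peaks the shares for aNE_H-only regions were 40.7% in aNE and 50.9% in pNE. The order was the same with the 208 bp minimum, at 36.9% and 63.9%.

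Among the day 4 lists, pNE_H-only regions were most often open in the other posterior descendants. They were open in 34.0% of cases in pNE_T and 28.3% in pNE_M, against 17.2% in aNE_T and 18.1% in aNE_M. The shares became 48.8% and 40.0%, against 20.4% and 21.6%, at equal list size. The aNE_H-only regions were most often open in aNE_M (46.8%), then pNE (35.5%), DE (32.7%) and aNE_T (26.8%), and least often in pNE_T (14.6%) and pNE_M (18.4%). No other list had a peak at 28.6% of the aNE_H-only and 37.1% of the pNE_H-only regions. In the equal-size sets these shares were 18.0% and 24.4%.

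A smaller set followed origin in all 3 media. Of the pNE_H-only regions, 11092 (8.18%) were also open in pNE_T and pNE_M and closed in aNE_T and aNE_M, and 9252 of them were in the equal-size set (14.5% of that set). The opposite pattern held for 3037 aNE_H-only regions (10.0%). Regions that went against origin in the other media were fewer. Only 192 aNE_H-only regions (0.632%) were open in pNE_T and pNE_M and closed in aNE_T and aNE_M, and 2937 pNE_H-only regions (2.17%) had the converse state.

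**Figure D2:**
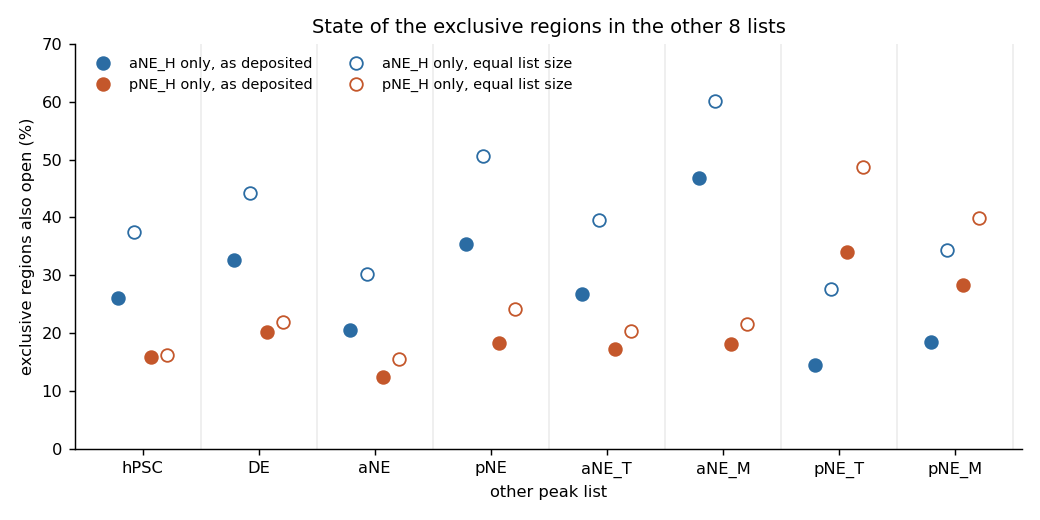
Share of exclusive regions (%, y axis) that were also open in each of the other 8 lists (x axis), for aNE_H-only (blue) and pNE_H-only regions (orange), as deposited (filled) and at equal list size (open). The orange points are above the blue ones of the same kind in pNE_T and pNE_M alone, and the highest blue points are at aNE_M (46.8% and 60.2%).

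Few promoters were exclusive, and those of several HOX genes were open in pNE_H only. A promoter was the RefSeq window of 300 bases, from 250 before to 50 after a start, for the 15101 protein-coding genes that have one, and the 1 kb on either side of both gene ends for the other 4025. A gene with several windows was counted as open where any of them had a peak. As deposited, 573 of 19126 genes (3.00%) had a promoter open in pNE_H only, and 170 (0.889%) had one open in aNE_H only. The numbers at equal list size were 376 (1.97%) and 349 (1.82%).

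The listed hindbrain genes with a promoter open in pNE_H only were led by HOX genes. Of the 12 HOX genes of paralog groups 1 to 4, the groups that pattern the hindbrain, 4 had a promoter open in pNE_H only (HOXA2, HOXB1, HOXB3 and HOXD4) and none had one open in aNE_H only. Of the 27 HOX genes of groups 5 to 13, 4 had one open in pNE_H only as well (HOXA7, HOXB6, HOXC12 and HOXD12). When pNE_H was cut to equal size, 3 genes of each of these lists were left in this class, and 1 gene of the second list had a promoter open in aNE_H only. HOXB3, HOXB6 and HOXC12 have no RefSeq window and were judged by the 1 kb around both gene ends. A peak counted for them may lie at the far end of the gene and not at its start.

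The HOX promoters differed in their history. The HOXA2 window (chr7:27102634-27102933, minus strand, GRCh38.p14) was open in pNE and in its 3 descendants, and in none of the other 6 lists. HOXA2 patterns the second rhombomere and the second pharyngeal arch. The HOXB1 window (chr17:48530962-48531261, minus strand), of the gene that marks the fourth rhombomere, was open in hPSC, DE, aNE and pNE and in all 3 pNE descendants, and closed in all 3 aNE descendants. The HOXD4 window (chr2:176151300-176151599, plus strand) was open in hPSC, DE and the 3 pNE descendants, and HOXC12, judged by its gene ends, had the same states. The other HOX promoters of this class did not follow origin in all 3 media. Judged by their gene ends, HOXB3 was open in pNE_M and pNE_H alone and HOXB6 in hPSC and pNE_H alone. The HOXA7 window was open in hPSC, DE, aNE, pNE_M and pNE_H. HOXD12 was open in hPSC, DE, aNE, aNE_T, pNE_T and pNE_H, and closed in pNE and pNE_M.

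Other promoters open in pNE_H only belonged to signalling and patterning genes. FGF3, a growth factor of the caudal hindbrain, had its window open in pNE_T and pNE_H and in no other list. CYP26A1, the enzyme that degrades retinoic acid, had a window open in all lists except aNE_H. SPRY4, which dampens FGF signalling, was open in pNE_H alone among the 10 lists. OLIG3, a factor of dorsal progenitors, had its window open in hPSC, DE, aNE, pNE, aNE_T and the 3 pNE descendants. The windows of HES5, PBX3 and NKX2-1, for a Notch target, a TALE factor and a ventral forebrain factor, were open in pNE_H only as deposited, and their pNE_H peaks were among the narrow ones removed at equal list size.

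In the opposite direction, OTX2 was the 1 gene of the 17 forebrain and midbrain genes with a promoter open in aNE_H only. One OTX2 window, chr14:56810430-56810729 at the annotated end of the gene, had a peak in DE alone. The other, chr14:56805618-56805917 (minus strand), had a peak in 8 of the 10 lists and none in pNE_T or pNE_H. The surrounding merged region, chr14:56805030-56806184 inside the gene, had an aNE_H peak of 704 bp and a pNE_H peak of 169 bp that did not reach the window. Peaks of hPSC, DE, aNE and aNE_T there were wider still, at 842, 723, 893 and 873 bp. Over the gene and 50 kb on each side, however, peaks covered 7222 bp in aNE_H and 8172 bp in pNE_H. DPPA2, a pluripotency-associated gene, had its window open in the same 8 lists. SIX3 and VAX1, factors of the forebrain and eye field, were open in aNE_H only at equal list size, since their pNE_H peaks were narrower than 208 bp. SIX3 was judged by the 1 kb around its gene ends.

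In the lists as deposited very few promoters followed origin in all 3 media, and most of them were on the posterior side. Of 21041 distinct windows, 82 (77 genes) were open in pNE_T, pNE_M and pNE_H and in none of aNE_T, aNE_M and aNE_H. Only 17 windows had the opposite pattern. These counts and those of the next paragraph are for the lists as deposited, where pNE_H had 302355 peaks and aNE_H 196961. They are not given at equal list size, so the part of list length in them is open. The 77 genes included HOXA2, HOXA3, HOXB1 and HOXD4, the motor neuron factor MNX1, the retinol transporter STRA6, and SMAD7, an inhibitor of TGF-beta and BMP signalling. The 77 also included genes best known from liver, gut and kidney: the nuclear receptors HNF4A and NR5A2, FABP1 (a fatty acid carrier), A1CF (an RNA editing cofactor), LIPC, the transporters ABCC2 and SLC10A2, DDC, ADH1C and ADH6. These genes were picked from the 77 after their states were seen.

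Of the 82 posterior windows, 53 were open in the 3 posterior descendants alone of the 10 lists, and 2 of the 17 anterior windows were open in the 3 anterior descendants alone. A further 38 windows (37 genes, CYP26A1 among them) were open in all lists except aNE_H, and 13 in all lists except pNE_H. There were 169 windows open in pNE_H alone and 34 in aNE_H alone.

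Windows were also divided by aNE_H and pNE_H alone. Of the 569 windows open in pNE_H only and kept at equal list size, 51.5% were open in pNE_T and 43.1% in pNE_M, and 29.7% to 36.6% in the other 6 lists. The 259 pNE_H-only windows lost at equal list size had no such lean. They were most often open in hPSC (34.0%), DE (32.4%) and aNE_M (30.9%), with 28.2% in pNE_T and 20.1% in pNE_M. The 195 windows open in aNE_H only, with peaks of any width, were most often open in pNE (53.8%), aNE_M (53.3%) and DE (50.8%), and least often in pNE_T (30.3%) and pNE_M (29.2%).

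**Figure D3:**
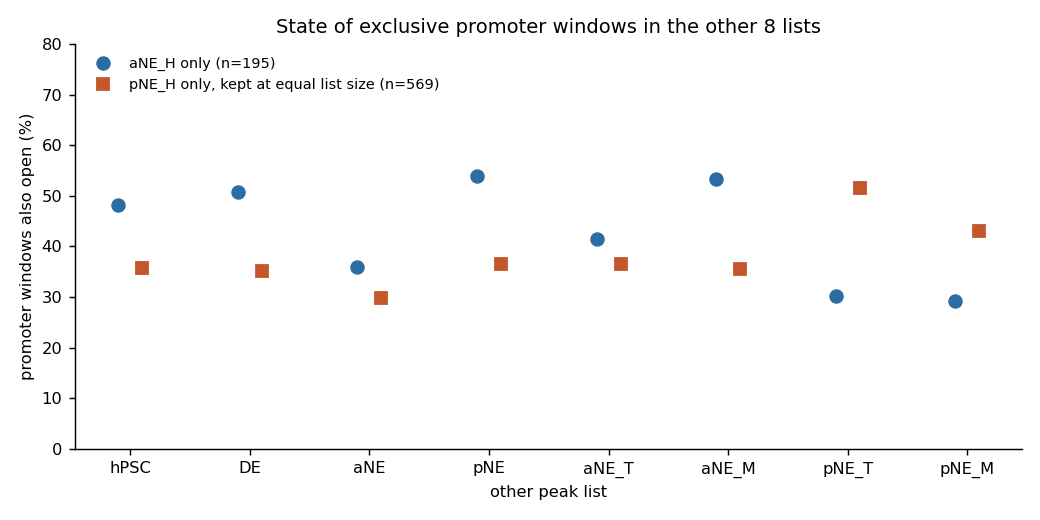
Share of exclusive promoter windows (%, y axis) that were also open in each of the other 8 lists (x axis), for the 195 aNE_H-only windows (blue circles) and the 569 pNE_H-only windows kept at equal list size (orange squares). The orange points are above the blue ones in pNE_T (51.5% against 30.3%) and pNE_M (43.1% against 29.2%) and below them in the other 6 lists. The 259 pNE_H-only windows lost at equal list size are not drawn.

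Of 5 motifs searched on both strands, 4 were about as frequent or less frequent in pNE_H-only promoters than in those open in neither list. TGATNNAT was in 10.7% of pNE_H-only windows kept at equal list size, 11.1% of windows open in neither list, 3.59% of aNE_H-only windows and 3.17% of windows open in both. The OTX form GGATTA was in 7.21% of the pNE_H-only and 5.64% of the aNE_H-only windows, and in 9.25% of those open in neither. The TCF form ATCAAAG was in 3.87%, 3.59% and 3.76% of the same 3 classes, and the SOX form CATTGT in 13.4%, 9.74% and 14.8%. The retinoid direct repeat was rare, in 3 of 569 pNE_H-only windows (0.527%, 0.179 to 1.54), 1 of 195 aNE_H-only windows, 4 of 4679 open in neither list (0.0855%) and 16 of all 21041 (0.0760%). The repeat in CYP26A1 is 1 of the 3, and that window was closed only in aNE_H.

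A list of 34 genes typical of liver, written after the promoters were seen, had 12 promoters open in pNE_H only and 1, that of SERPINA1, open in aNE_H only. The 12 were FGA, SERPINC1, PROC, HRG, G6PC1, HNF4A, NR5A2, SLC2A2, FABP1, A1CF, LIPC and PLG. SERPINC1 has no RefSeq window and was judged by its gene ends. Because of how the list was made, its count is not evidence of a direction. Of the others, 9 were open in both lists, among them APOA1, APOB, APOC3, TF, CPS1 and AMBP, which were open in all 10, and 12 in neither. The defining hepatocyte genes ALB, AFP, TTR, APOA2 and AHSG were among these 12 and were open in none of the other 8 lists either. FGA was open in all lists except aNE_H. Of promoters of endoderm factors, those of FOXA2, SOX17 and EOMES were open in all 10 lists, and that of FOXA1 in all except pNE_H.

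Around genes, the exclusive regions were counted from 50 kb before to 50 kb after each of 19126 protein-coding genes, and a gene was called in a direction where one kind outnumbered the other by 3 or more. As deposited, 63.7% of all genes were called for pNE_H and 0.946% for aNE_H, so most lists of genes lean to pNE_H whatever they hold. With equal-size lists 13.2% were called for pNE_H and 21.5% for aNE_H. With the 208 bp minimum in both lists the shares were 45.3% and 1.12%. The count per gene is read below against these shares.

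The HOX clusters leaned to pNE_H under all 3 treatments. Of the 12 genes of paralog groups 1 to 4, 12 were called for pNE_H as deposited, 12 at equal list size and 12 with the common minimum width, and none for aNE_H. Of the 27 genes of groups 5 to 13 the numbers were 27, 19 and 27. Neighbouring HOX windows share regions, so the clusters were also counted as wholes. From HOXD13 to HOXD1 there were no aNE_H-only and 19 pNE_H-only regions as deposited, and 2 and 11 at equal list size. From HOXB1 to HOXB13 there were 4 and 25, and 8 and 14 at equal list size. The HOXA cluster had 2 and 16, and 2 and 7 at equal list size. The HOXC cluster had 1 and 10, but 4 and 3 at equal list size, so it did not share the lean of the other clusters there.

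Among factors of the hindbrain segments and their TALE partners, 14 of 15 genes were called for pNE_H as deposited, 8 at equal list size and 10 with the common minimum width. MEIS2, a HOX cofactor, had 5 aNE_H-only and 41 pNE_H-only regions as deposited, 10 and 21 at equal list size, and 4 and 24 with the common minimum width. At equal list size MEIS1 had 5 and 13, and TSHZ1, a zinc finger factor, had 4 and 14. The 2 genes called for aNE_H at equal list size were GBX2 (5 and 2) and FGF3 (6 and 1). GBX2 had 3 and 9 as deposited and 3 and 5 with the common minimum width, and FGF3 had 1 and 3, then 3 and 2, so neither was called for aNE_H in those forms. GBX2 positions the front edge of the hindbrain. The FGF3 promoter itself was open in pNE_H only.

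The widest pNE_H-only peak at MEIS2 was 1075 bp wide (chr15:37148659-37149733), 47.9 kb from the nearer gene end, in a region that only hPSC and aNE_H lacked. At HOXB1 it was 689 bp (chr17:48552425-48553113, inside HOXB3), in a region open in hPSC, aNE, pNE and the 3 pNE descendants. At HOXD4 it was 625 bp (chr2:176158889-176159513, inside HOXD3), in a region open in aNE_M and pNE_M besides.

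The retinoid pathway was led by 1 gene. RARB, a retinoic acid receptor gene and a classical retinoid target, had 7 aNE_H-only, 90 pNE_H-only and 41 shared regions as deposited. It had 16 and 45 at equal list size, and with the common minimum width 7 and 53. Its difference of 29 regions at equal list size was the highest of all listed genes. The gene with its flanks spans chr3:24779321-25647932. The widest pNE_H-only peak there was 797 bp (chr3:25221562-25222358, inside RARB), in a region open in pNE and pNE_T besides. Of the 19 retinoid genes, 17 were called for pNE_H as deposited, 5 at equal list size (with 3 for aNE_H) and 12 with the common minimum width. NRIP1, a nuclear receptor corepressor, had 4 and 11 at equal list size. CYP26A1 had 4 of each.

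Genes of the forebrain, the midbrain and the boundary leaned to aNE_H only in the equal-size form. Of 17 forebrain and midbrain genes, 11 were called for pNE_H as deposited, 7 for aNE_H and none for pNE_H at equal list size, and 7 for pNE_H and none for aNE_H with the common minimum width. OTX2 went from 2 aNE_H-only and 3 pNE_H-only regions to 8 and 1, and back to 2 and 3. Of its 8 aNE_H-only regions at equal list size, 6 held a pNE_H peak narrower than 208 bp. Of the 9 boundary genes, 5 were called for pNE_H and none for aNE_H as deposited. At equal list size 5 were called for aNE_H (EN1, PAX2, PAX8, LMX1B and CNPY1) and none for pNE_H. With the common minimum width 3 were called for pNE_H and 1, CNPY1, for aNE_H. EN1 had 11 and 5, then 6 and 5. PAX2 had 17 and 6, then 8 and 9.

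Calls at WNT targets also turned with the treatment of the lists. Of 11 genes, 8 were called for pNE_H as deposited, 8 for aNE_H at equal list size (with 2 for pNE_H), and 7 for pNE_H with the common minimum width. LEF1, a nuclear mediator of WNT signalling, had 13 aNE_H-only and 15 pNE_H-only regions as deposited, 18 and 8 at equal list size, and 5 and 9 with the common minimum width. SP5, a direct WNT target, had 7 and 6, 9 and 3, and 3 and 3. Its widest aNE_H-only peak was 360 bp (chr2:170726217-170726576), 8.30 kb from the gene, in a region open in aNE_M and in no pNE-derived list.

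The remaining lists had calls on both sides or few calls at equal list size. There the numbers called for pNE_H and aNE_H were 2 and 2 of 10 FGF feedback genes, 0 and 3 of 8 dorsal genes, 2 and 1 of 9 ventral genes, 2 and 3 of 10 progenitor genes and 1 and 5 of 14 neurogenesis genes. ELAVL4, a neuronal RNA-binding protein, was the 1 neurogenesis gene called for pNE_H (1 and 11). Of 8 neural crest genes 2 and 1 were called, and ETS1 had 20 aNE_H-only and 5 pNE_H-only regions. With the common minimum width ETS1 had 7 of each. Of 9 surface ectoderm genes 2 and 3 were called, of 8 mesendoderm and CDX genes 1 and 3, and of 9 pluripotency genes 0 and 1. With the common minimum width, where 45.3% of all genes were called for pNE_H, the numbers called for pNE_H were 9 of 10 FGF feedback, 4 of 8 dorsal, 5 of 9 ventral, 6 of 10 progenitor, 4 of 14 neurogenesis, 5 of 8 neural crest, 8 of 9 surface ectoderm, 2 of 8 mesendoderm and CDX and 5 of 9 pluripotency genes, and none of these genes was called for aNE_H. CDX2, which specifies the caudal body, had 0 aNE_H-only and 13 pNE_H-only regions as deposited and 2 and 9 at equal list size. For the markers of other cell types, most promoters were open in both lists: 6 of 9 pluripotency, 6 of 9 surface ectoderm, 13 of 14 neurogenesis, 7 of 8 neural crest and 8 of 8 mesendoderm and CDX genes. Those open in neither were POU5F1 and NANOG, GATA2, TP63 and KRT8, NHLH1, and TFAP2B. The part of other cell types in the exclusive regions was not tested.

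**Figure D4:**
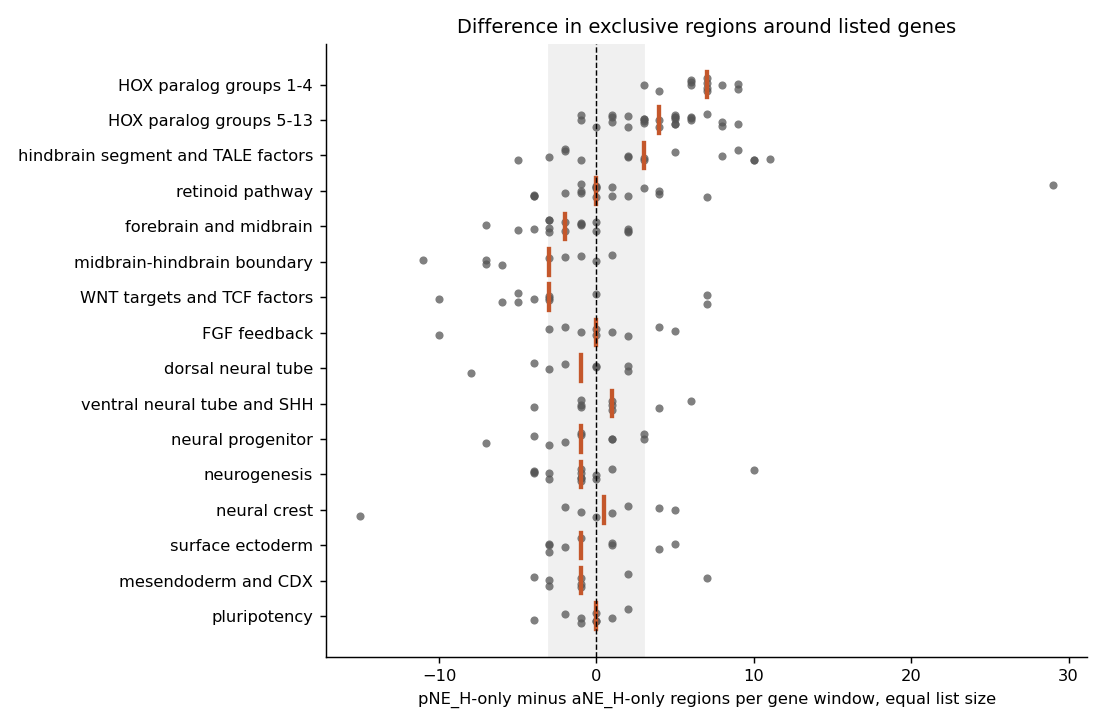
Difference between pNE_H-only and aNE_H-only regions in the window of each listed gene at equal list size (x axis, regions), by gene list (rows). Each point is a gene, the orange bar is the list's median, the dashed line marks 0, which is the median of all 19126 genes, and genes on or outside the edge of the grey band (3 regions) are called. HOX groups 1 to 4 lie at 3 or above, RARB is the point at 29, and ETS1 the point at -15.

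In the origin comparison of the other media, HOX genes were again called mostly for the posterior side. At equal list size, 9 of 12 HOX genes of groups 1 to 4 were called for the posterior side in telencephalon medium and 12 in midbrain medium, where 11.3% and 11.0% of all genes were called for that side and 26.1% and 25.7% for the anterior side. Of the 27 genes of groups 5 to 13, 11 were called for the posterior side in telencephalon medium and 24 in midbrain medium, with 0 and 1 for the anterior side. RARB had 15 aNE_T-only and 42 pNE_T-only regions, and 8 and 37 in midbrain medium. MEIS2 had 7 and 15, and 8 and 13. Of the 9 boundary genes 1 was called for the anterior side in telencephalon medium and 7 in midbrain medium. LEF1 differed in sign between media, with 6 and 15 in telencephalon medium and 13 and 3 in midbrain medium.

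**Figure D5:**
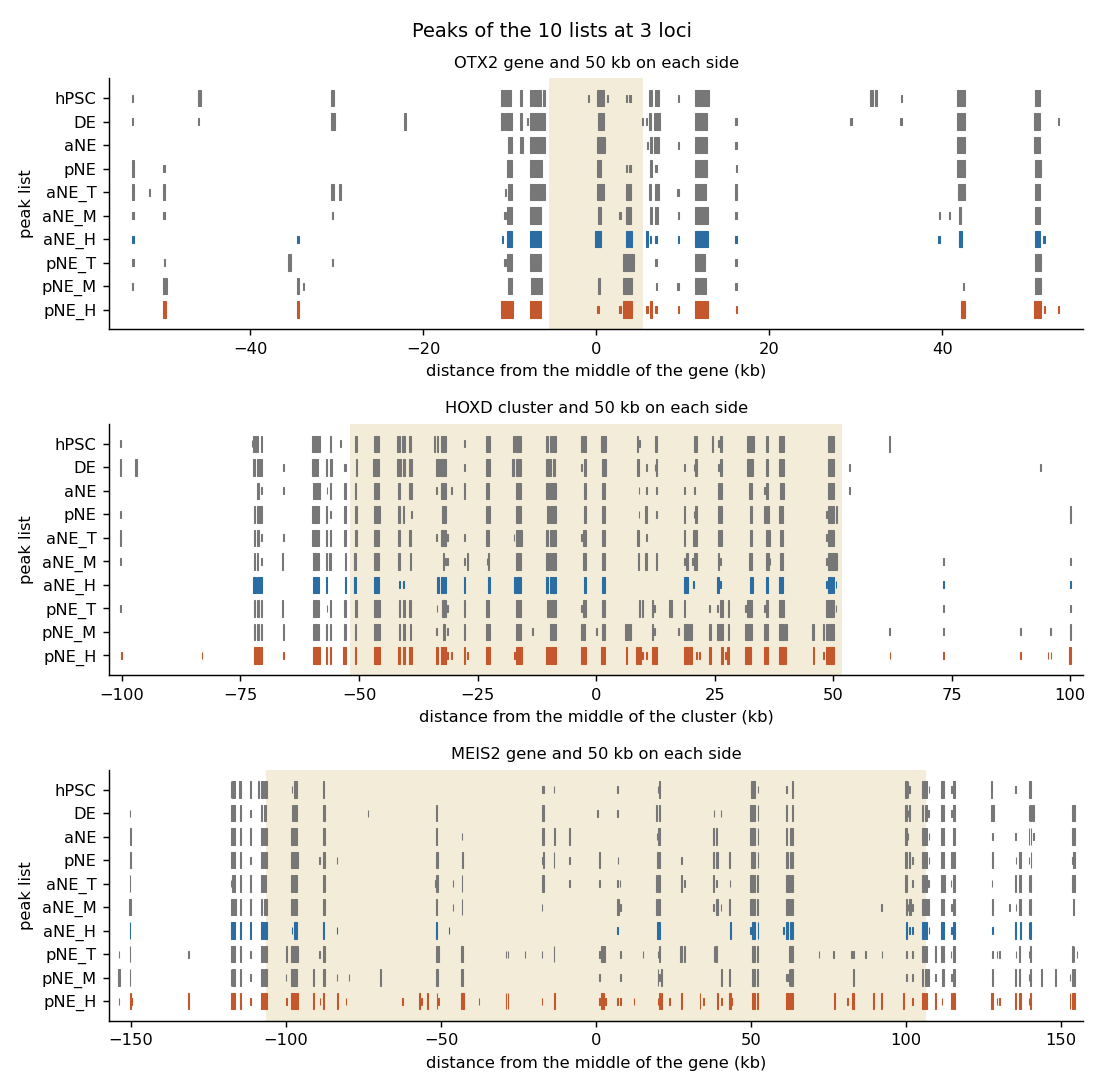
Peaks of the 10 lists (rows) at OTX2, the HOXD cluster and MEIS2, against the distance from the middle of the gene or cluster (kb); the shaded band is the gene or cluster, tall marks are peaks of at least 208 bp, low marks narrower ones, blue is aNE_H and orange pNE_H. At OTX2 the central aNE_H peak of 704 bp faces a pNE_H peak of 169 bp. Elsewhere in the gene a pNE_H peak of 976 bp faces aNE_H peaks of 238 and 265 bp. Over OTX2 and 50 kb on each side, peaks cover 7222 bp in aNE_H and 8172 bp in pNE_H. Within the HOXD cluster and around MEIS2 pNE_H holds 19 and 41 regions that aNE_H lacks.

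Along the genome, regions were assigned to genes by the nearest gene end, and genes were ranked by the difference between pNE_H-only and aNE_H-only regions. As deposited, the leading gene was RBFOX1, a neuronal splicing factor gene of 2.47 Mb, with 18 aNE_H-only, 194 pNE_H-only and 123 shared regions. It was followed by TENM3 (31 and 200), PCDH9 (23 and 186), TENM2 (19 and 178), TENM4 (16 and 166), AUTS2 (33 and 175), LRRC4C (26 and 166), ADGRL2 (24 and 163), GPC5 (34 and 173) and PIK3C3 (21 and 160). Teneurins, protocadherins, latrophilins and LRRC4C are adhesion molecules of neurons. Gene length was not corrected for, and a longer gene has more regions.

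RBFOX1 again led at equal list size, with 37 aNE_H-only and 92 pNE_H-only regions, and PIK3C3, TENM2 and LRRC4C were again among the first 10. The others were PARD3B (16 and 66), FHIT (25 and 74), FAT3 (30 and 77), LRMDA (20 and 63), NR2F2 (25 and 64) and FAM135B (18 and 56). NR2F2, an orphan nuclear receptor with roles in neural and mesodermal patterning, is a gene of only 0.0142 Mb. The gene with 50 kb on each side held 3 aNE_H-only and 2 pNE_H-only regions at equal list size. Most of the regions assigned to NR2F2 thus lay farther away, and its near surroundings did not lean to pNE_H.

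The leading genes on the aNE_H side had few regions. As deposited, TTC34 had 13 aNE_H-only and 2 pNE_H-only regions, IRAK2 had 6 and 0, DMRT1 9 and 3, MC2R 6 and 0, RBL1 6 and 0 and ACTRT2 5 and 0. The uncharacterised genes LOC101927345 and LOC124904970 and the members NBPF19 and NPIPB5 of duplicated gene families made up the rest of the 10. Reads from near-identical copies cannot be placed with certainty, so these 4 are uncertain. At equal list size the leaders were GBE1 (71 and 38), ARID1B (47 and 25), LOC124904970 (23 and 3), TTC34 (19 and 2), ETS1 (32 and 15), IRF8 (25 and 8), ADGRB3 (32 and 16), the Notch ligand gene DLL1 (20 and 5), CHD2 (21 and 6) and OLFM3 (25 and 11).

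By windows of 1 Mb, the most pNE_H-leaning window as deposited was chr10:75000001-76000000, which holds ZNF503 and part of LRMDA, with 11 aNE_H-only and 113 pNE_H-only regions. ZNF503 is a transcriptional repressor. The next were chr15:62000001-63000000 with TLN2 (7 and 103), chr8:106000001-107000000 with OXR1 (4 and 99), chr8:37000001-38000000 with ZNF703 (10 and 103) and chr3:64000001-65000000 with PRICKLE2 and ADAMTS9 (8 and 100). Of these, the chromosome 3 and 15 windows were also among the first 5 at equal list size (14 and 54, 16 and 53), together with chr16:9000001-10000000 with GRIN2A (10 and 52), chr6:106000001-107000000 with PRDM1 (21 and 59) and chr11:92000001-93000000 with FAT3 (17 and 55).

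On the aNE_H side no 1 Mb window held more than 9 aNE_H-only regions among the first 5 as deposited. They were chr20:29000001-30000000 (9 and 1), chr21:9000001-10000000 (8 and 4), chr8:43000001-44000000 (6 and 3), chr9:138000001-139000000 (4 and 2) and chr16:32000001-33000000 (2 and 0). Shared regions were also few there, from 1 to 9 per window. The chromosome 21 window holds LOC101927345, 1 of the genes called uncertain above. At equal list size the first was chr1:2000001-3000000, with SKI, PRKCZ and HES5 (50 and 15). It was followed by chr1:149000001-150000000 with NOTCH2NLC and a histone gene cluster (47 and 17), chr2:231000001-232000000 (39 and 9), chr12:27000001-28000000 (39 and 11) and chr12:132000001-133000000 (46 and 19). The chr1:149000001-150000000 window also holds NBPF19, so the same uncertainty applies to it.

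Away from gene ends, by more than 1 kb, the widest exclusive peaks of pNE_H were wider than those of aNE_H. At equal list size the first for pNE_H was chr9:85319318-85321528 (2211 bp), 226 kb from AGTPBP1, in a region also open in aNE, pNE, aNE_T, pNE_T and pNE_M. The next, chr5:56637311-56639278 (1968 bp), lay 177 kb from MAP3K1 in a region open in every list but the 3 aNE descendants. The third, chr6:137602518-137604468 (1951 bp), lay 109 kb from OLIG3 in a region open only in the 3 pNE descendants. None of the 3 held an aNE_H peak of any width.

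For aNE_H the widest were chr1:48381833-48383395 (1563 bp, inside SPATA6) and chr5:43086692-43088050 (1359 bp, 33.5 kb from ZNF131), but both regions held a pNE_H peak of 109 bp, the narrowest width in that list. The third, chr7:50754313-50755798 (1486 bp), lay inside GRB10, a growth factor receptor adaptor gene, and had no pNE_H peak. That region was open in hPSC, DE, aNE, pNE, aNE_T, aNE_M and aNE_H and in none of the 3 pNE descendants.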

How the data were processed

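The deposited files were 10 lists of peak positions, 1 per group of 3 libraries. They hold 3 columns of coordinates without a header, and no score, signal or p-value accompanies a peak. Per the submitters' processing notes the build was hg38, and Bowtie2, MACS2 and bedtools were among the tools. Their versions, the peak threshold and the way replicates were combined are not given in the sources used here. Each library was made from 50000 cells per the labels. Peaks on chromosomes 1 to 22 were merged with Python 3.11.15, numpy 2.4.6 and pandas 2.3.3, and figures were drawn with matplotlib 3.10.9. A region counted around a gene by its midpoint. Gene positions and promoter sequences came from RefSeq on GRCh38.p14, and 195 of 196 listed genes were matched. The overlap code was checked on simulated lists. Alternatives were minimum widths, equal covered length, all lists at the shortest size, 500 bp windows, 50% coverage, other flanks and other promoter rules. Members and gene lists were chosen with earlier results of these data known. The genes named were list members with a promoter open in 1 list or called in a direction, the first 10 genes and 5 windows in each direction, the 3 widest exclusive peaks and the widest exclusive peak at a few of these genes. The liver list and the 208 bp minimum in both lists were added after values were seen. Some listed genes are counted within their lists and not reported here by name.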

Additional observations from a re-analysis of the deposited data

Results flagged for a closer look

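Peaks outside chromosomes 1 to 22 entered no comparison. There were 17005 of them in aNE_H and 23245 in pNE_H, on the X chromosome and other sequences.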

How the results depend on the processing

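The lists give no depth, score or replicate value, so nothing here was recomputed without a replicate. No paired analysis was possible because each group has 1 pooled list with no value per replicate.

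The order of values below is aNE_H-only regions, pNE_H-only regions, shared regions, Jaccard index, then the share of aNE_H-only regions open in pNE and in aNE and of pNE_H-only regions open in pNE and in pNE_T. Only values that moved beyond their interval, or counts beyond 1.5 times, are given. Equal list size gave 57413, 63907, an index of 0.513, and 50.7%, 30.3%, 24.2% and 48.8%. All 10 lists at the shortest length gave 48509, 53344, an index of 0.508, and 50.9%, 40.7%, 23.9% and 47.2%. Equal covered length gave 104840, 21010, 80330, an index of 0.390, and 66.0%, 44.3%, 32.3% and 68.4%. A minimum of 126 bp gave an index of 0.501 and 38.4%, 22.2%, 19.9% and 37.6%. With 50% coverage there were 99448 shared regions, an index of 0.343, and 33.8%, 17.8%, 16.0% and 29.1%. Windows of 500 bp gave an index of 0.502 and 37.7%, 22.5%, 19.3% and 36.1%. More than 1 kb from gene ends the index was 0.453 and the share of pNE_H-only regions open in pNE 18.1%. The 208 bp minimum in both lists, chosen after seeing the data, gave 85655 pNE_H-only regions, an index of 0.495, and 63.9%, 36.9%, 36.4% and 52.8%. Peaks of that width with no peak in the other list numbered 11582 and 64226.

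For promoters only equal list size moved the counts, to 376 for pNE_H and 349 for aNE_H. Genes called for pNE_H and aNE_H were 2532 and 4105 at equal list size, 4497 and 63 in gene bodies alone, 6119 and 111 with 10 kb flanks and 7294 and 90 for wide peaks absent in the other list. The 126 bp minimum gave 443 for aNE_H. PAX2, called for pNE_H as deposited, turned to -11 at equal list size and -1 at the 126 bp minimum. As a share of regions, the median difference of the forebrain and midbrain genes turned to -12.5 percentage points at equal list size, where that of HOX groups 1 to 4 was 20.7 and that of all genes -2.50. The median of the retinoid genes moved from 30.0 to 0.0. The cause was not tested.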
